A study of Mus musculus with 3 samples.

Results

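Collagen genes were taken as all genes of the mouse mm10 annotation whose symbol is made of Col, a number, the letter a and a number, such as Col4a2. The rule found 44 of 49939 genes. By the collagen they encode, 8 belong to basement membranes (Col4a1 to Col4a6, Col15a1 and Col18a1) and 11 are fibrillar (Col1a1, Col1a2, Col2a1, Col3a1, Col5a1, Col5a2, Col5a3, Col11a1, Col11a2, Col24a1 and Col27a1). The fibril-associated collagens, called FACIT, count 9 genes (Col9a1, Col9a2, Col9a3, Col12a1, Col14a1, Col16a1, Col19a1, Col20a1 and Col22a1). Beaded filaments and related forms count 8 (Col6a1 to Col6a6, Col26a1 and Col28a1), network and anchoring collagens 4 (Col7a1, Col8a1, Col8a2 and Col10a1) and transmembrane collagens 4 (Col13a1, Col17a1, Col23a1 and Col25a1).

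Collagens are triple-helical proteins of the extracellular matrix. Type IV collagen forms the sheet of every basement membrane: chains of Col4a1 and Col4a2 are present in all of them, while those of Col4a3, Col4a4 and Col4a5 form the mature glomerular membrane and part of the tubular ones and are the genes of Alport syndrome. Fibrillar collagens such as types I and III build the fibres of the interstitium, are made mainly by fibroblasts and accumulate in kidney fibrosis. The type IV genes lie in head-to-head pairs that are read in opposite directions from a shared start.

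Single cells of mouse kidneys were profiled for open chromatin by mtscATAC-seq, in which transposase cuts accessible DNA in permeabilised cells that keep their mitochondria. All mice carried the trnE mutation, a point mutation of the mitochondrial tRNA gene for glutamate, and no kidney free of it was used here. The old group held old replicate 1 (age 75 weeks, mutation load 75%) and old replicate 2 (75 weeks, load 80%), and the young group was 1 library (3 weeks, load 80%). Whether the old samples are separate animals is not in the labels. The p-values below rest on the spread between the pair of old libraries alone, possibly a technical one. The spread among young samples was not measured, and age cannot be told apart from other traits of the 1 young library. Where a pair of old values is given, that of old replicate 1 stands before that of old replicate 2.

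The level of a gene is given in CPM (the usual library-scaled counts): its counts in regions with a peak in every library (common regions) that overlap the gene body or 2 kb on either side, scaled to the total in common regions of the same cell class and library. It measures openness of chromatin, not RNA or protein, and the assay has no strand, so a region in the windows of overlapping genes counts for each.

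The old libraries held 96093221 and 64729297 counts, the young library 110871506. They shared 28 to 39 barcodes per pair. Old replicate 1 stood apart: 61.8% of its cells were macrophage or dendritic-like, against 0.101% for old replicate 2 and 2.97% for the young library. Proximal tubule-like cells (the segment that reclaims most of the filtrate) numbered 236 and 3329 in the old libraries, against 3274 in the young library. Loop to collecting duct-like cells numbered 54 and 323, against 203, and endothelium-like cells 183 and 104, against 50. No cluster met the rule for fibroblast-, smooth muscle- or podocyte-like cells. Of 12 fibroblast or mesangium markers, 7 were at 0 in each of the last 3 classes and every library. A gene without a common region is at 0 in every class, so these zeros do not show that such cells were absent. Old and young proximal tubule-like cells lay mostly in different clusters.

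Of the 44 collagen genes, 38 had at least 1 common region, and the other 6 (Col1a2, Col6a1, Col6a3, Col9a3, Col10a1 and Col11a1) had none and no level in common regions. Col1a2, which encodes the second chain of type I collagen, had 2 peaks in the young library and none in either old library. Col10a1, the collagen of hypertrophic cartilage, had no peak in any library. Summed over the members there were 339 and 404 peaks in the old libraries, against 410 in the young library. Of these, 67 and 221, against 269, were open in at least 2% of barcodes. All peaks numbered 169187 and 143258 in the old libraries, against 149490 in the young library. Peaks were called in each library alone and depend on its cells and depth, which holds for Col1a2 too. The 178 common regions of collagen genes lay in gene bodies (156), at gene starts (14) or in the flanks (8). Starts were listed for 35 of the 44 members only, so regions at other starts could count as gene body or flank. Of the 178, 25 also fell in the window of another gene, and 4 were shared by a head-to-head pair.

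The promoters that bear on the results are those of the type IV pairs, of Col18a1, which led in tubule cells, and of Col25a1. The start region of Col25a1 was called lower in old than in young endothelium-like cells, on few counts and not in every setting. RefSeq promoters on build GRCm38.p6 were found for 35 of the 44 members. The 250 bases before the start in that table are printed 5′ to 3′ on the gene's strand, with matches on either strand to the GC box (GGGCGG), to the TATA box (TATAAA) and to the letters of the CCAAT box in capitals.
Col4a1: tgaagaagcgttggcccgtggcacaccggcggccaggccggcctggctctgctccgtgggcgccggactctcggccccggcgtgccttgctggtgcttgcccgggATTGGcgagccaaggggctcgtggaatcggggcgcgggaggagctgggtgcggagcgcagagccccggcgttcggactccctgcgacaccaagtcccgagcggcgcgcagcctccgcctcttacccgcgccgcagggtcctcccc
Col4a2: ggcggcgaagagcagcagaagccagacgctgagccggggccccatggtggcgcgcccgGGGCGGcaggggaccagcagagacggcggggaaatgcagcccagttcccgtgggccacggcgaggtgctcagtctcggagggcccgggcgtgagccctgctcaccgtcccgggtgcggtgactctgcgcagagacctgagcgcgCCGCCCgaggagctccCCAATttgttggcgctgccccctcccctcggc
Col4a4: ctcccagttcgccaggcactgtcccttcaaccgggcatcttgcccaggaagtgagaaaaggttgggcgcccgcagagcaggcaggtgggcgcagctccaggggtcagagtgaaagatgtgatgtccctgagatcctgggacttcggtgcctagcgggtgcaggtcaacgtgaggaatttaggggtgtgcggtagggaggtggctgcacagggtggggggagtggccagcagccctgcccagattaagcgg
Col4a5: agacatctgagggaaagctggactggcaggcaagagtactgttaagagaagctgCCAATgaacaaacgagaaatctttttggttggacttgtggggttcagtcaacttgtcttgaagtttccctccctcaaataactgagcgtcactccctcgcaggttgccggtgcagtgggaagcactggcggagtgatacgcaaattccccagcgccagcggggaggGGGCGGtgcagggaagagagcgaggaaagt
Col4a6: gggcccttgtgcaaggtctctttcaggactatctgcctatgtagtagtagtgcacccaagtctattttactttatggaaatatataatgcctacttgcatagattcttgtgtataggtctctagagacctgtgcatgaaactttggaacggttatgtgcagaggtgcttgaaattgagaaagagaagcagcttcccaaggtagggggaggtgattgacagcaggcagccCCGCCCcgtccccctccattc
Col18a1: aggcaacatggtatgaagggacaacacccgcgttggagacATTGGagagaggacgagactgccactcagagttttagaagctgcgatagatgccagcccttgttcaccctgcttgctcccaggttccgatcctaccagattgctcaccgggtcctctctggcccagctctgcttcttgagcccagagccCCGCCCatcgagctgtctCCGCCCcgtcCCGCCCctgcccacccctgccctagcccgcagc
Col25a1: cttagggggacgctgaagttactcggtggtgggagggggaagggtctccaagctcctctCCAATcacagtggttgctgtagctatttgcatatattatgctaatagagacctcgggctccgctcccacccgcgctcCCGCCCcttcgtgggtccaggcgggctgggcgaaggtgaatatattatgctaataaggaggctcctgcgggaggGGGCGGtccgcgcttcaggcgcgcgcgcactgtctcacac

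They lie at chr8:11312827-11313076 (minus strand), chr8:11312555-11312804 (plus), chr1:82586850-82587099 (minus), chrX:141475169-141475418 (plus), chrX:141474077-141474326 (minus), chr10:77166531-77166780 (minus) and chr3:130180595-130180844 (plus). The Col4a1 promoter lies just inside the Col4a2 gene and the Col4a2 promoter just inside Col4a1, and both carried a CCAAT box. The Col18a1 promoter printed, next to the annotated start, held 3 GC boxes, while a second one of the table, at chr10:77113706-77113955, held none of these motifs. Col4a2 and Col25a1 held 2 GC boxes each, and Col4a4 held none of these motifs. Of the 38 promoters listed for these members, 22 held a GC box, 13 a CCAAT box and 5 a TATA box. Over all 32851 promoters of the table the shares were 32.74%, 33.85% and 12.37%. A match is a run of letters, not a binding site.

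**Figure D1:**
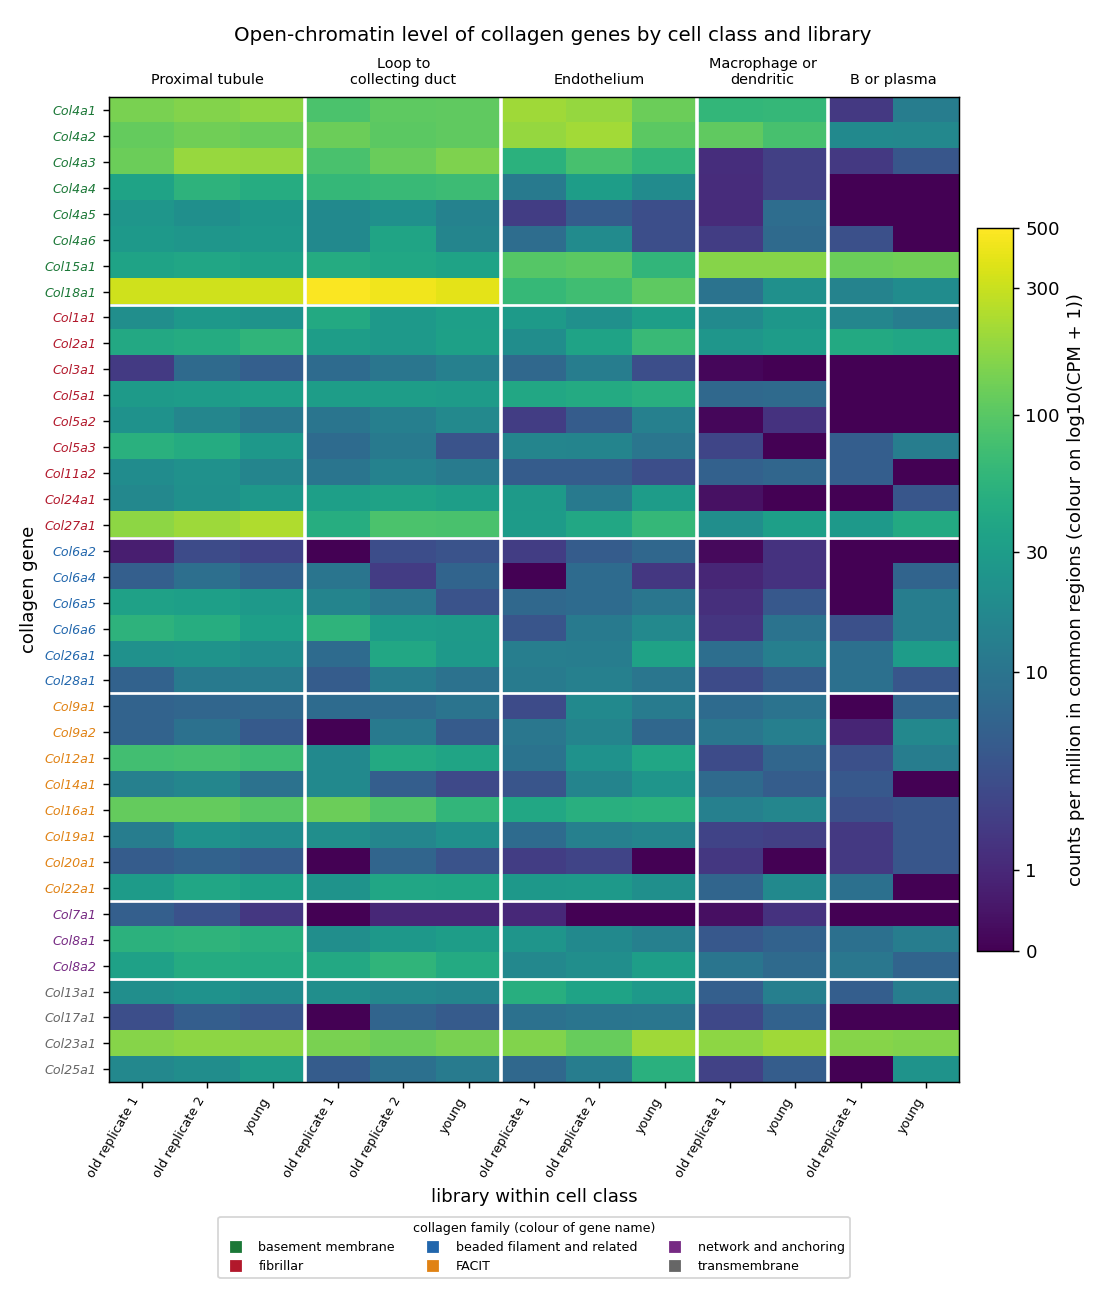
Levels of the 38 collagen genes with a common region (rows, CPM in common regions on a colour scale) in each cell class and library (columns, old libraries left of the young one). Gene names are coloured by family. Col18a1 and the type IV genes are high in the tubule classes, and Col15a1 is high in the immune classes.

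Levels by cell class describe the libraries and were not tested, since the classes are clusters of the same cells. Among basement membrane genes, Col18a1 (chr10:77052178-77166530), which encodes a proteoglycan-like collagen that releases endostatin, was the most open per length in both tubule classes. Its mean level over the libraries was 2.72 CPM per kb in proximal tubule-like cells and 3.72 CPM per kb in loop to collecting duct-like cells. It had 319 and 322 CPM in the old libraries, against 325 CPM in the young library in proximal tubule-like cells, close together at both ages. It had 488 and 442 CPM in the old libraries, against 389 CPM in the young library in loop to collecting duct-like cells. Endothelium-like cells had 63.9 and 74.3 CPM in the old libraries, against 105 CPM in the young library. Every tubule level was above every endothelium-like level. Macrophage or dendritic-like cells had 9.66 CPM in old replicate 1, against 21.7 CPM in the young library, and B or plasma-like cells had 15.3 CPM in old replicate 1, against 19.3 CPM in the young library.

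Different regions of Col18a1 led in different classes. In both tubule classes the leading region was chr10:77146728-77147680 in the gene body. It had 84.6 and 84.6 CPM in the old libraries, against 92.9 CPM in the young library in proximal tubule-like cells. In endothelium-like cells the same region had 0 and 5.12 CPM in the old libraries, against 24.5 CPM in the young library, with no count in old replicate 1. The leading region of endothelium-like, macrophage or dendritic-like and B or plasma-like cells was chr10:77130165-77131173. Endothelium-like cells had 30.4 and 20.5 CPM in the old libraries, against 28 CPM in the young library there, about alike at both ages. The region that holds the annotated start (chr10:77166086-77166939) was low, with 13 and 11.9 CPM in the old libraries, against 12.3 CPM in the young library in proximal tubule-like cells.

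The ubiquitous type IV pair was most open in the old endothelium-like cells. There Col4a1 (chr8:11198423-11312889) had 206 and 186 CPM in the old libraries, against 124 CPM in the young library. Exact 95% intervals were 179 to 237 CPM and 147 to 232 CPM in the old libraries, against 87.5 to 171 CPM in the young library, and cover counting error only. Its partner Col4a2 (chr8:11312805-11449287) had 188 and 209 CPM in the old libraries, against 103 CPM in the young library. For both genes the old libraries were above the young one. Col4a1 had 142 and 157 CPM in the old libraries, against 173 CPM in the young library in proximal tubule-like cells. Col4a2 had 114 and 129 CPM in the old libraries, against 119.8 CPM in the young library in these cells. Col4a1 had 84.9 and 107 CPM in the old libraries, against 110.1 CPM in the young library in loop to collecting duct-like cells. In both tubule classes Col4a1 was thus lower in the old libraries than in the young library. Col4a2 had 124 and 105 CPM in the old libraries, against 108 CPM in the young library in loop to collecting duct-like cells, and in both tubule classes its ages overlapped.

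Macrophage or dendritic-like cells also had open chromatin at this pair. Their level was 60.8 CPM in old replicate 1, against 62.1 CPM in the young library at Col4a1. At Col4a2 it was 109 CPM in old replicate 1, against 81.5 CPM in the young library. The open regions were others than in tubules. Region chr8:11249393-11250456 held 36.4 CPM in old replicate 1, against 35.9 CPM in the young library in macrophage or dendritic-like cells, which is 59.9% and 57.8% of the Col4a1 count. It held 3.25 and 2.2 CPM in the old libraries, against 1.83 CPM in the young library in proximal tubule-like cells. The reverse held for chr8:11279116-11280290, which also lies in the window of the predicted gene Gm32709. It led Col4a1 in proximal tubule-like cells with 68.6 and 64.7 CPM in the old libraries, against 70.5 CPM in the young library. Macrophage or dendritic-like cells had 0.206 CPM in old replicate 1, against 1.5 CPM in the young library there. B or plasma-like cells had little at Col4a1, with 1.8 CPM in old replicate 1, against 12.9 CPM in the young library.

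Col4a3 and Col4a4, the pair of the mature glomerular membrane, were highest in the tubule classes. Col4a3 (chr1:82586921-82722059) had 124 and 192 CPM in the old libraries, against 185 CPM in the young library in proximal tubule-like cells. Loop to collecting duct-like cells had 83.7 and 121 CPM in the old libraries, against 149 CPM in the young library. In each tubule class old replicate 1 was the lowest library. Endothelium-like cells had 51.5 and 80.7 CPM in the old libraries, against 59.5 CPM in the young library at Col4a3, and macrophage or dendritic-like cells were near 0, with 1.26 CPM in old replicate 1, against 2.24 CPM in the young library. Col4a4 (chr1:82448419-82587034) was likewise highest in the tubule classes. It had 36.3 and 55.2 CPM in the old libraries, against 45.6 CPM in the young library in proximal tubule-like cells. It had 61.8 and 66.1 CPM in the old libraries, against 70.6 CPM in the young library in loop to collecting duct-like cells, and in endothelium-like cells 11.9 and 30.7 CPM in the old libraries, against 19.2 CPM in the young library.

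The start shared by Col4a3 and Col4a4 was itself open in tubules. Region chr1:82586514-82587388 covers the annotated starts of both genes and the Col4a4 promoter printed above. It had 20.6 and 35.4 CPM in the old libraries, against 38.5 CPM in the young library in loop to collecting duct-like cells. Proximal tubule-like cells had 16.7 and 27.6 CPM in the old libraries, against 19.1 CPM in the young library. Endothelium-like cells had 3.09 and 10.2 CPM in the old libraries, against 1.75 CPM in the young library, and both B or plasma-like values were 0. The leading Col4a3 region of proximal tubule-like cells lay further inside the gene, at chr1:82634319-82635239, with 51.6 and 65.8 CPM in the old libraries, against 70.03 CPM in the young library. For Col4a1 and Col4a2 the start was not a common region, since a peak over it was called in old replicate 1 alone. The nearest common region (chr8:11313371-11314397) had 10.3 and 2.56 CPM in the old libraries, against 14 CPM in the young library in endothelium-like cells.

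Col4a5 and Col4a6, the X-linked pair, were the least open type IV genes per length in the 3 classes tested below. Col4a5 had 25.3 and 21 CPM in the old libraries, against 26.2 CPM in the young library in proximal tubule-like cells. Col4a6 had 27.4 and 25 CPM in the old libraries, against 27.5 CPM in the young library there. The start region shared by both windows, chrX:141474932-141475879, covers the Col4a5 promoter and held 52.8% to 67.9% of either gene's count in these cells. Col4a5 had 18 and 21.7 CPM in the old libraries, against 14.8 CPM in the young library in loop to collecting duct-like cells. Col4a6 had 18 and 36.7 CPM in the old libraries, against 15.8 CPM in the young library, and old replicate 2 was the highest library for both genes. In endothelium-like cells Col4a5 had 2.06 and 5.12 CPM in the old libraries, against 3.5 CPM in the young library, and Col4a6 had 8.25 and 19.2 CPM in the old libraries, against 3.5 CPM in the young library.

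Col15a1 (chr4:47207655-47313167), a collagen of the outer side of basement membranes, known from capillaries and muscle, was highest in immune-like cells. Macrophage or dendritic-like cells had 161 CPM in old replicate 1, against 162 CPM in the young library, and B or plasma-like cells had 124 CPM in old replicate 1, against 129 CPM in the young library. It was the most open collagen gene per length in macrophage or dendritic-like cells, at a mean level of 1.48 CPM per kb. In endothelium-like cells it had 96.4 and 104 CPM in the old libraries, against 59.5 CPM in the young library, higher in both old libraries. It had 35.8 and 38.4 CPM in the old libraries, against 34.7 CPM in the young library in proximal tubule-like cells, and in loop to collecting duct-like cells 45 and 39.4 CPM in the old libraries, against 35.6 CPM in the young library. In B or plasma-like cells a single region, chr4:47250791-47251741, held 85.5% of its count for old replicate 1, against 73.3% for the young library. That region also lies in the window of the predicted gene Gm52733, so the count cannot be given to Col15a1 alone.

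**Figure D2:**
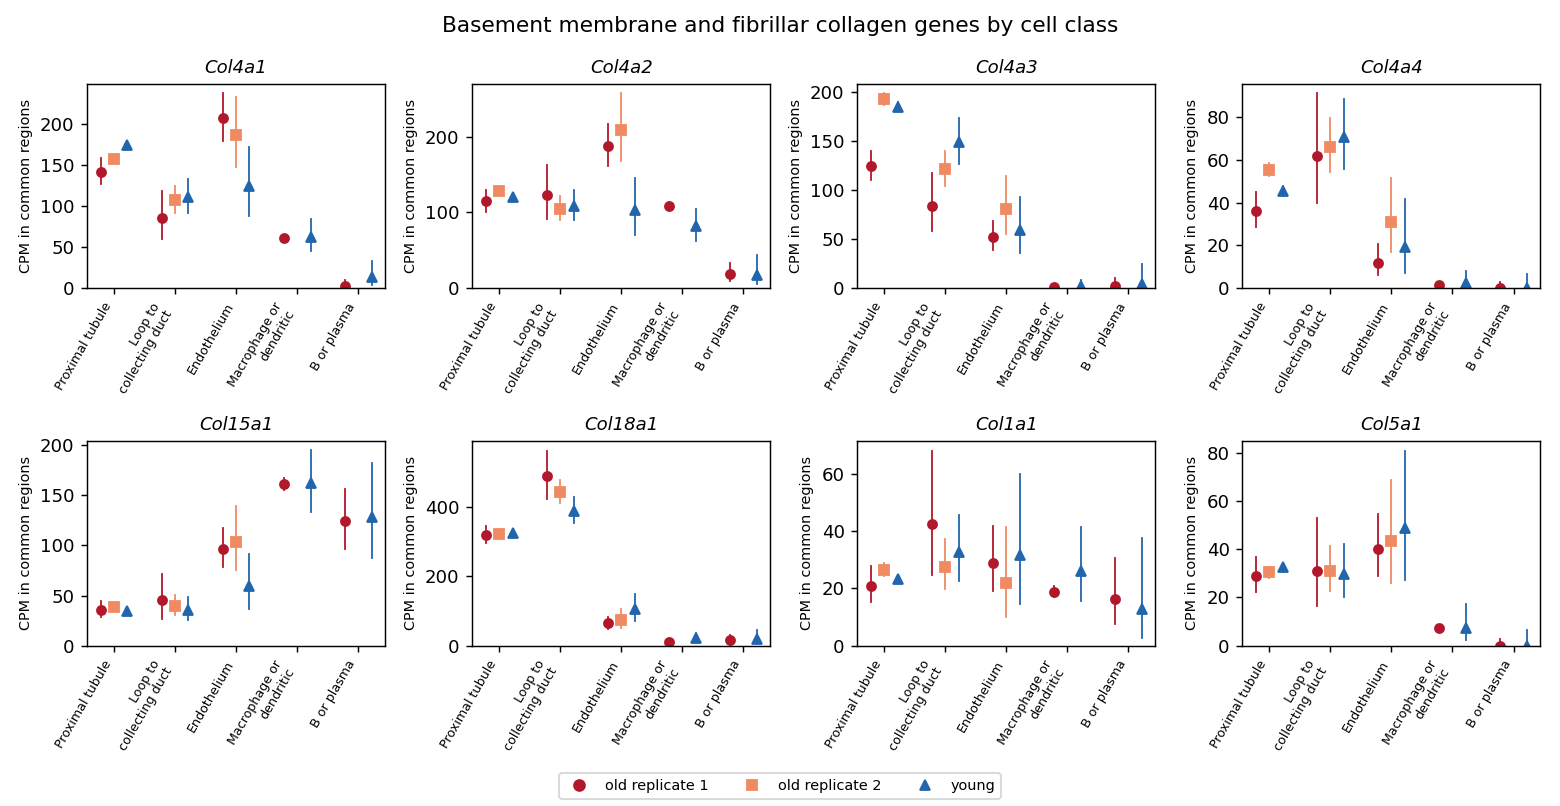
Levels of single basement membrane and fibrillar collagen genes (CPM in common regions, y axis from 0) in 5 cell classes (x axis), with 1 point per library, old left of young. In endothelium-like cells both old libraries lie above the young one at Col4a1, Col4a2 and Col15a1.

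Per length, Col1a1, Col2a1 and Col27a1 were the 3 most open fibrillar genes in each of the 5 classes. In proximal tubule-like cells Col1a1 (chr11:94936224-94953042), the first chain of type I collagen, had 20.7 and 26.5 CPM in the old libraries, against 23.2 CPM in the young library. Endothelium-like cells had 28.9 and 21.8 CPM in the old libraries, against 31.5 CPM in the young library. Loop to collecting duct-like cells had 42.5 and 27.4 CPM in the old libraries, against 32.6 CPM in the young library. The young value lay between the old ones in both tubule classes and above them in endothelium-like cells. Macrophage or dendritic-like cells had 18.6 CPM in old replicate 1, against 26.2 CPM in the young library, a range that overlapped that of proximal tubule-like cells. Most of the level, 63.4% to 100% of the gene's count in each class and library, came from region chr11:94936712-94937635 at the 5′ end of the gene body. The gene is short, and its mean level per length was 1.64 CPM per kb in loop to collecting duct-like, 1.32 CPM per kb in endothelium-like, 1.08 CPM per kb in macrophage or dendritic-like and 0.698 CPM per kb in B or plasma-like cells, among the 3 highest in each.

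Col3a1, the type III collagen gene of interstitial fibres, had a single common region, chr1:45313571-45314666 in the gene body. It had 1.86 and 7.63 CPM in the old libraries, against 5.56 CPM in the young library in proximal tubule-like cells. It had 7.72 and 10.3 CPM in the old libraries, against 13.8 CPM in the young library in loop to collecting duct-like cells. Endothelium-like cells had 7.22 and 12.8 CPM in the old libraries, against 3.5 CPM in the young library. The ages overlapped in proximal tubule-like cells, while the young library was highest in loop to collecting duct-like and lowest in endothelium-like cells. Macrophage or dendritic-like cells had 0.103 CPM in old replicate 1, against 0 CPM in the young library.

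Col5a1 and Col5a2 encode the type V chains that nucleate type I fibrils. In endothelium-like cells Col5a1 had 40.2 and 43.6 CPM in the old libraries, against 49 CPM in the young library. Most of this lay at its start (chr2:27885636-27886822), with 27.3 and 24.3 CPM in the old libraries, against 36.7 CPM in the young library. Col5a1 had 28.8 and 30.4 CPM in the old libraries, against 32.6 CPM in the young library in proximal tubule-like cells, and in loop to collecting duct-like cells 30.9 and 31 CPM in the old libraries, against 29.6 CPM in the young library. These values differed little between libraries. Col5a2 had 22.8 and 16.5 CPM in the old libraries, against 11.1 CPM in the young library in proximal tubule-like cells. It had 10.3 and 13.7 CPM in the old libraries, against 17.8 CPM in the young library in loop to collecting duct-like cells, and in endothelium-like cells 2.06 and 5.12 CPM in the old libraries, against 14 CPM in the young library. The old libraries were above the young one at Col5a2 in proximal tubule-like cells and below it in the other tested classes.

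Col27a1, a fibrillar collagen of cartilage, was the most open fibrillar gene per length in proximal tubule-like cells. It had 172 and 200.1 CPM in the old libraries, against 239 CPM in the young library there, or a mean of 1.63 CPM per kb. It had 47.6 and 84.4 CPM in the old libraries, against 82.5 CPM in the young library in loop to collecting duct-like cells, and in endothelium-like cells 29.4 and 41 CPM in the old libraries, against 61.2 CPM in the young library. Col2a1, the main cartilage collagen, had 20.1 and 35.9 CPM in the old libraries, against 66.5 CPM in the young library in endothelium-like cells, with the young library highest. Its mean level was 1.23 CPM per kb in endothelium-like and in B or plasma-like cells and 0.837 CPM per kb in macrophage or dendritic-like cells. From 85.7% to 100% of its endothelium-like count came from region chr15:97992641-97993547, which also lies in the window of the predicted gene Gm46536.

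Summed over the 11 fibrillar genes, levels in endothelium-like cells were 177 and 192 CPM in the old libraries, against 269 CPM in the young library. The 8 basement membrane genes summed to 628 and 709 CPM in the old libraries, against 478 CPM in the young library. The old libraries were thus above the young one for the basement membrane sum and below it for the fibrillar sum. Of the fibrillar genes with values above, the gaps were widest at Col2a1 and Col27a1. The young library was also highest at Col1a1, Col5a1 and Col5a2, and it was lowest at Col3a1. Basement membrane genes of proximal tubule-like cells summed to 824 and 939.6 CPM in the old libraries, against 937 CPM in the young library. The fibrillar genes there summed to 374 and 414 CPM in the old libraries, against 438 CPM in the young library.

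Of the FACIT family, Col16a1 had 115 and 115 CPM in the old libraries, against 98.9 CPM in the young library in proximal tubule-like cells, a mean of 1.98 CPM per kb that was second to Col18a1. It had 122 and 90.8 CPM in the old libraries, against 59.3 CPM in the young library in loop to collecting duct-like cells, a mean of 1.64 CPM per kb. In both classes the old libraries were above the young one. Col12a1, found on the surface of type I fibrils, had 76.2 and 79 CPM in the old libraries, against 69.7 CPM in the young library in proximal tubule-like cells. In endothelium-like cells it had 9.79 and 23.1 CPM in the old libraries, against 38.5 CPM in the young library. Col14a1, its relative, had 14.2 and 16.2 CPM in the old libraries, against 9.41 CPM in the young library in proximal tubule-like cells and 4.12 and 15.4 CPM in the old libraries, against 24.5 CPM in the young library in endothelium-like cells. At both genes the young library was lowest in proximal tubule-like and highest in endothelium-like cells.

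Col8a1, a short-chain network collagen, had 53.2 and 55.7 CPM in the old libraries, against 49 CPM in the young library in proximal tubule-like cells. In endothelium-like cells it had 24.7 and 17.9 CPM in the old libraries, against 14 CPM in the young library. Col6a2 was the only gene with a common region among Col6a1, Col6a2 and Col6a3, whose chains assemble into the classical type VI filament. It was near the floor, with 0.697 and 3.18 CPM in the old libraries, against 2.47 CPM in the young library in proximal tubule-like cells and 2.06 and 5.12 CPM in the old libraries, against 6.998 CPM in the young library in endothelium-like cells.

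Col23a1, a transmembrane collagen, was open in all 5 classes, with levels between 118 and 205 CPM. Its leading region in each class and library, except B or plasma-like cells of the young library, was chr11:51584221-51585156 in the flank, which lies in the window of the neighbouring Phykpl gene as well. That region held 38.9% to 59.8% of its count there. Col25a1, a transmembrane collagen known from neurons and amyloid plaques, had 17.2 and 20.1 CPM in the old libraries, against 28.3 CPM in the young library in proximal tubule-like cells. In endothelium-like cells it had 7.22 and 12.8 CPM in the old libraries, against 50.7 CPM in the young library, and the young library was far above both old ones. Among members without values given here the highest level was 57.4 CPM, at Col8a2 in loop to collecting duct-like cells of old replicate 2.

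**Figure D3:**
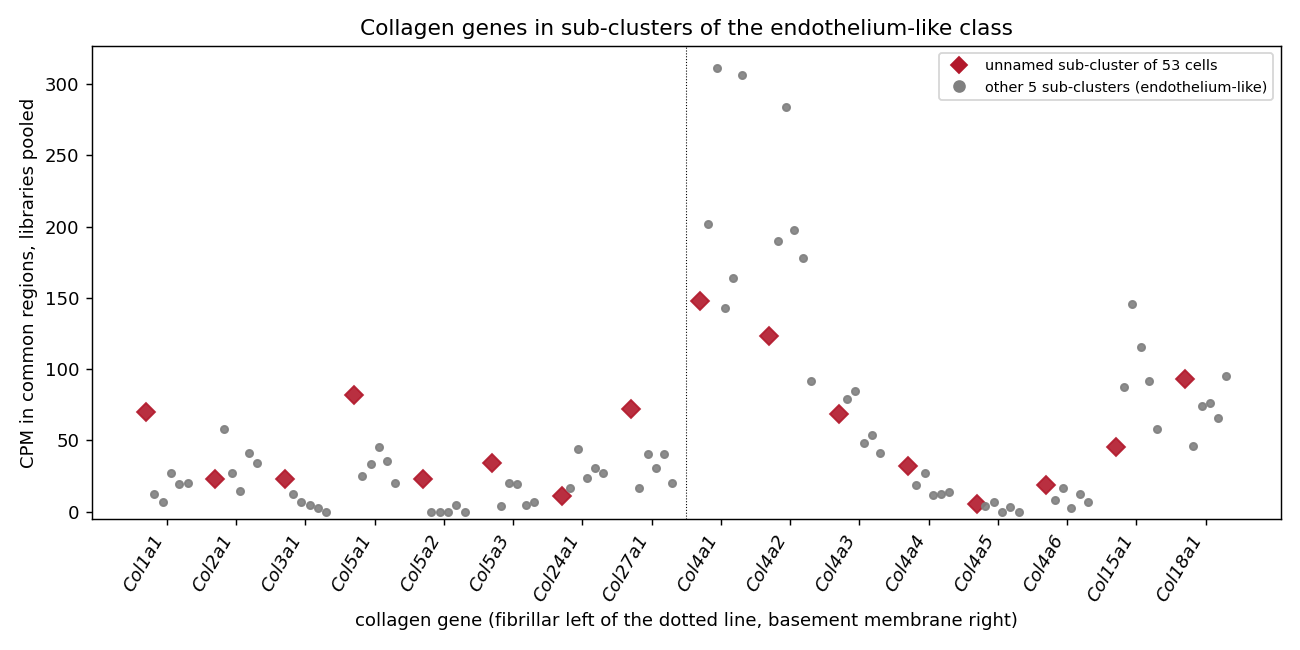
Pooled levels (CPM in common regions, all libraries together) of fibrillar genes, left of the dotted line, and basement membrane genes, right of it, in sub-clusters of the endothelium-like class. Diamonds mark the unnamed sub-cluster of 53 cells, which lies above the other 5 sub-clusters (circles) at Col1a1, Col3a1, Col5a1, Col5a2, Col5a3, Col27a1, Col4a4 and Col4a6. It lies below them at Col24a1 and Col15a1.

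Within the endothelium-like class, 1 of 6 sub-clusters was the highest at 6 fibrillar genes and at many members of the other families. It held 53 cells (20 and 22 of the old libraries and 11 of the young library), was led by Sparc, Hectd2os, Slc1a7 and Klhl29, and met no naming rule. Its best marker score was that of podocytes (1.08), with 0.964 for the next class. Its pooled level at Col1a1 was 70.2 CPM, against 6.76 to 27.4 CPM in the other 5. Col5a1 had 81.6 CPM, against 20.4 to 45.7 CPM, and Col5a2 had 22.8 CPM, against 0 to 4.88 CPM. Col3a1 had 22.8 CPM, against 0 to 12.5 CPM, and the fibril-associated Col14a1 37.9 CPM, against 0 to 20.3 CPM. The fibrillar Col24a1 went the other way (11.4 CPM, against 16.7 to 43.96 CPM), and Col2a1 and Col11a2 lay within the range of the others. Outside the fibrillar family, the sub-cluster was also highest at Col6a2, Col6a4, Col6a6, Col8a1, Col8a2, Col9a1, Col12a1, Col16a1, Col19a1 and Col26a1. At Col28a1 it was about level with the highest of the others (20.86 CPM, against 4.88 to 20.84 CPM). The sub-cluster held 527265 counts in common regions, so ranks at low levels, such as 7.59 CPM at Col6a4, rest on few counts. Of the basement membrane genes, Col4a4 (32.2 CPM, against 11.4 to 27.05 CPM) and Col4a6 (18.97 CPM, against 2.28 to 16.9 CPM) were also highest there. Col15a1 had 45.5 CPM, below the 57.9 to 145 CPM of the others, and Col4a1 (148 CPM), Col4a2 (123 CPM), Col4a3, Col4a5 and Col18a1 lay within their range. The sub-clusters were made without collagen regions, and no test was run on them. Another sub-cluster held 60 and 2 cells of the old libraries and 0 of the young library, so the make-up of the class also differed between libraries.

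To ask whether collagen genes opened or closed with age, old and young libraries were compared within each class by the quasi-likelihood test of edgeR, two-sided, with p adjusted over all genes after Benjamini and Hochberg (threshold 0.05). Log2 changes are old over young. In proximal tubule-like cells 0 of 38 collagen genes were called, against a background of 0.622% higher and 0.2% lower (0.822% in all) of 25546 genes. An unadjusted p under 0.05 was found for 4 of the collagen genes and for 1285 of all genes. DESeq2 also called 0, with 3 unadjusted. Basement membrane genes had a median log2 change of -0.05, with 3 of 8 above 0, and fibrillar genes -0.08, with 4 of 9 above 0, where the median of all genes was 0.00. Among basement membrane genes, Col18a1 had -0.02, Col4a1 -0.21, Col4a2 0.03 and Col4a3 -0.20.

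Col5a3, a type V chain, had the smallest p-value in proximal tubule-like cells. Its level was 50.4 and 44.4 CPM in the old libraries, against 26.8 CPM in the young library (log2 0.81, SE 0.24, adjusted p = 0.0894). Both old libraries were above the young one. With only regions covered at least 70% by peaks in every library, a setting chosen after the data were seen, it passed (log2 0.80, adjusted p = 0.0367). Within clusters that held at least 10 cells of every library the value was -0.073 (adjusted p = 0.9985). Col6a6, a type VI chain, had 54.4 and 47.3 CPM in the old libraries, against 32.7 CPM in the young library (log2 0.62, SE 0.23, adjusted p = 0.372), again higher in both old libraries. The next were Col5a2 (log2 0.79, SE 0.38, adjusted p = 0.897) and Col27a1 (log2 -0.36, SE 0.18, adjusted p = 0.947). At 10 CPM or more, the other largest values were 0.71 at Col14a1, -0.58 at Col25a1, -0.42 at Col24a1 and -0.40 at Col28a1. No proximal tubule region passed among the 178 of collagen genes (DESeq2 0, with 4 unadjusted), against 0.0553% higher and 0.00553% lower (0.0608% in all) of 72316 regions. Unadjusted, 7 of the collagen regions and 3126 of all regions were under 0.05. The smallest p-value was in the Col12a1 flank at chr9:79597515-79598438, with 7.9 and 6.88 CPM in the old libraries, against 2.19 CPM in the young library (log2 1.72, SE 0.57, adjusted p = 0.634). The next were chr15:55310271-55311848 in Col14a1 (log2 1.47, SE 0.50, adjusted p = 0.67) and chr9:105818903-105819806 in Col6a6 (log2 1.09, SE 0.37, adjusted p = 0.672).

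In loop to collecting duct-like cells 0 of 36 tested collagen genes were called (2 unadjusted, and 872 of all genes), against 0.0607% higher and 0.0694% lower (0.13% in all) of 23048 genes. DESeq2 called 0 of 38, with 1 unadjusted. The median log2 change was 0.14 for basement membrane genes (5 of 8 above 0) and 0.03 for fibrillar genes (5 of 9), and 0.01 for all genes. Col16a1 had log2 0.80, SE 0.30, adjusted p = 0.852, and both old levels given above exceeded the young one. Its region chr4:130074841-130075910 had 72.1 and 39 CPM in the old libraries, against 20.2 CPM in the young library (log2 1.32, SE 0.44, adjusted p = 0.599). That region also lies in the window of the predicted gene Gm46871. Col4a3 had log2 -0.50, SE 0.25, adjusted p = 1. Values at other named genes were 1.66 at Col6a5, 0.87 at Col4a6, -0.57 at Col3a1 and -0.53 at Col5a2. None of 125 collagen regions passed (5 unadjusted, and 1681 of all regions; DESeq2 0 of 178, with 1 unadjusted), against 0.0339% higher and 0.018% lower (0.0519% in all) of 50138 regions. The next smallest p-values were at chr4:47250791-47251741 in Col15a1 (log2 1.63, SE 0.75, adjusted p = 0.9997) and chr10:77165307-77166084 in Col18a1 (log2 1.15, SE 0.54, adjusted p = 0.9997).

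**Figure D4:**
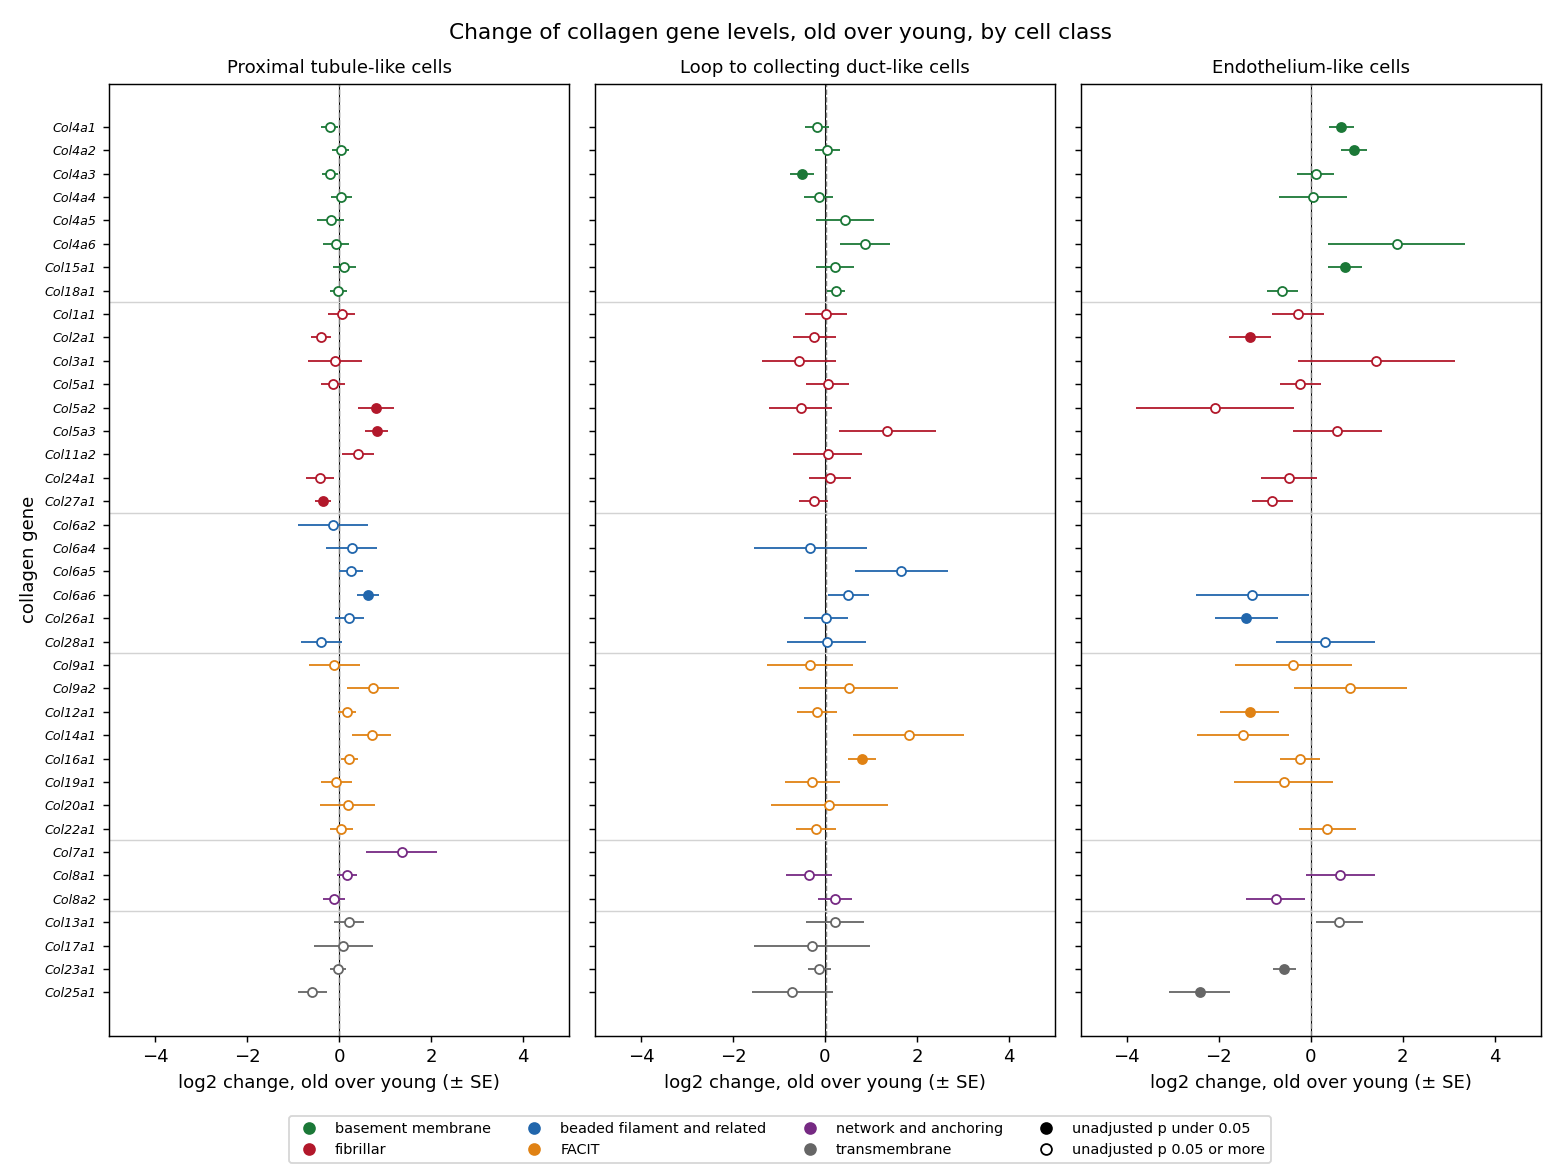
Log2 change of each tested collagen gene, old over young, with its SE (x axis) in the 3 tested cell classes, coloured by family. The dashed line is the median of all genes, and filled points have an unadjusted p under 0.05. In endothelium-like cells Col4a1, Col4a2 and Col15a1 lie right of the line and Col25a1 lies furthest left among filled points.

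In endothelium-like cells 0 of 30 tested collagen genes were called, against 0.162% higher and 0.167% lower (0.328% in all) of 18573 genes. An unadjusted p under 0.05 was found for 8 of the collagen genes and for 1698 of all genes (DESeq2 0 of 38, with 2 unadjusted). Among genes that passed the filter on low counts, the medians of basement membrane and fibrillar genes lay on opposite sides of that of all genes. A gene could pass this filter through 1 library, and so through the age group where it was high. Of the genes in these medians, Col5a2 (log2 -2.075) was highest in the young library and Col4a6 (log2 1.87) in old replicate 2. The basement membrane genes that passed the filter on low counts had a median log2 change of 0.67, with 6 of 7 above 0. Fibrillar genes that passed it had -0.37, with 2 of 8 above 0, and all genes 0.02. The genes behind the first value were Col4a2 (log2 0.94, SE 0.28, adjusted p = 0.109), Col4a1 (log2 0.67, SE 0.27, adjusted p = 0.343) and Col15a1 (log2 0.75, SE 0.36, adjusted p = 0.505), while Col18a1 had -0.61. On the lower side were Col25a1 (log2 -2.41, SE 0.66, adjusted p = 0.0599), Col2a1 (log2 -1.31, SE 0.46, adjusted p = 0.225), Col12a1 (log2 -1.33, SE 0.64, adjusted p = 0.501), Col26a1 (log2 -1.40, SE 0.69, adjusted p = 0.515) and Col23a1 (log2 -0.57, SE 0.26, adjusted p = 0.445). Col26a1, of the beaded filament group, had 13.4 and 12.8 CPM in the old libraries, against 35 CPM in the young library, with the young library highest. Other named genes had log2 changes of -0.27 at Col1a1 (2.18 without the unnamed sub-cluster, not called either way), -0.23 at Col5a1 and 0.64 at Col8a1. Among the largest changes at 10 CPM or more were also 0.87 at Col9a2 and -1.47 at Col14a1. With only the common region nearest their starts the value of Col4a1 and Col4a2 was -0.98 (adjusted p = 0.892), and without regions covered under 70% Col4a2 had 0.06. Without a filter on low counts Col25a1 passed (-2.37, adjusted p = 0.035).

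Single regions were then compared, since a gene's count pools many. In endothelium-like cells 3 collagen regions rose and 1 fell of 50 tested, that is, of those that passed the filter on low counts. The background was 0.55% of 24564 regions higher and 0.147% lower (0.696% in all), and DESeq2 called 0 of 166, with 5 unadjusted. Each of the 4 was low in 1 age group, so its counts passed the filter through the other. Without the filter 1 of 166 passed, the Col4a2 region (adjusted p = 0.0021), and the others had 0.0547 to 0.105. Those that rose lay in the bodies of Col4a2 and Col4a1, and the region that fell was the start of Col25a1.

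The Col4a2 region, chr8:11322530-11324224, had 58.8 and 78.2 CPM in the old libraries, against 6.998 CPM in the young library in endothelium-like cells. That is 114 and 61 counts in the old libraries, against 4 in the young library. Both old libraries were far above the young one (log2 3.24, SE 0.65, adjusted p = 0.000616), and it was the leading Col4a2 region in both old libraries. Peaks covered 956 and 1441 of its 1695 bp in the old libraries, against 750 bp in the young library, so part of it was counted in the old libraries alone, and it also lies in the window of Gm46030. It had 2.32 and 5.78 CPM in the old libraries, against 5.37 CPM in the young library in proximal tubule-like cells. Without the unnamed sub-cluster it still passed (adjusted p = 2.79e-06).

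A region of Col4a1, chr8:11234102-11235468, had 45.9 and 28.2 CPM in the old libraries, against 5.25 CPM in the young library (log2 2.83, SE 0.78, adjusted p = 0.0439). The young library had 3 counts, with 89 and 22 in the old libraries, and peaks covered 835 to 1016 of its 1367 bp. In loop to collecting duct-like cells the order was the other way, with 19.3 and 29.4 CPM in the old libraries, against 42.5 CPM in the young library. The other Col4a1 region, chr8:11259725-11260800, had 38 and 20 counts in the old libraries, against 0 in the young library. It also lies in the window of the predicted gene Gm32709. Set against a chosen floor of 3 counts in the young library, the ratio was 3.73 for old replicate 1 and 4.88 for old replicate 2 (edgeR, adjusted p = 0.0245). The floor is in cut-site counts, of which most fragments give 2, so these ratios are no lower bounds. This region had 13.2 and 11.5 CPM in the old libraries, against 19.8 CPM in the young library in proximal tubule-like cells.

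The start of Col25a1, chr3:130180189-130181175, which holds the promoter printed above, had 5.16 and 2.56 CPM in the old libraries, against 40.2 CPM in the young library in endothelium-like cells. It fell in the old libraries (log2 -3.23, SE 0.82, adjusted p = 0.0185), on 10 and 2 counts, against 23 in the young library, through which it passed the filter. It was not called without the filter (adjusted p = 0.0547). In proximal tubule-like cells it had 12.5 and 13.5 CPM in the old libraries, against 23.6 CPM in the young library (log2 -0.88, SE 0.34, adjusted p = 0.843), lower in both old libraries without passing the test. The next smallest p-value was at chr15:97992641-97993547 in Col2a1, with 18.6 and 30.7 CPM in the old libraries, against 66.5 CPM in the young library (log2 -1.49, SE 0.49, adjusted p = 0.138). With only regions covered at least 70%, the calls at Col25a1 (adjusted p = 0.0318) and at chr8:11259725-11260800 (0.0354) were kept and the other 2 regions were not tested. Without the unnamed sub-cluster 1 region passed.

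**Figure D5:**
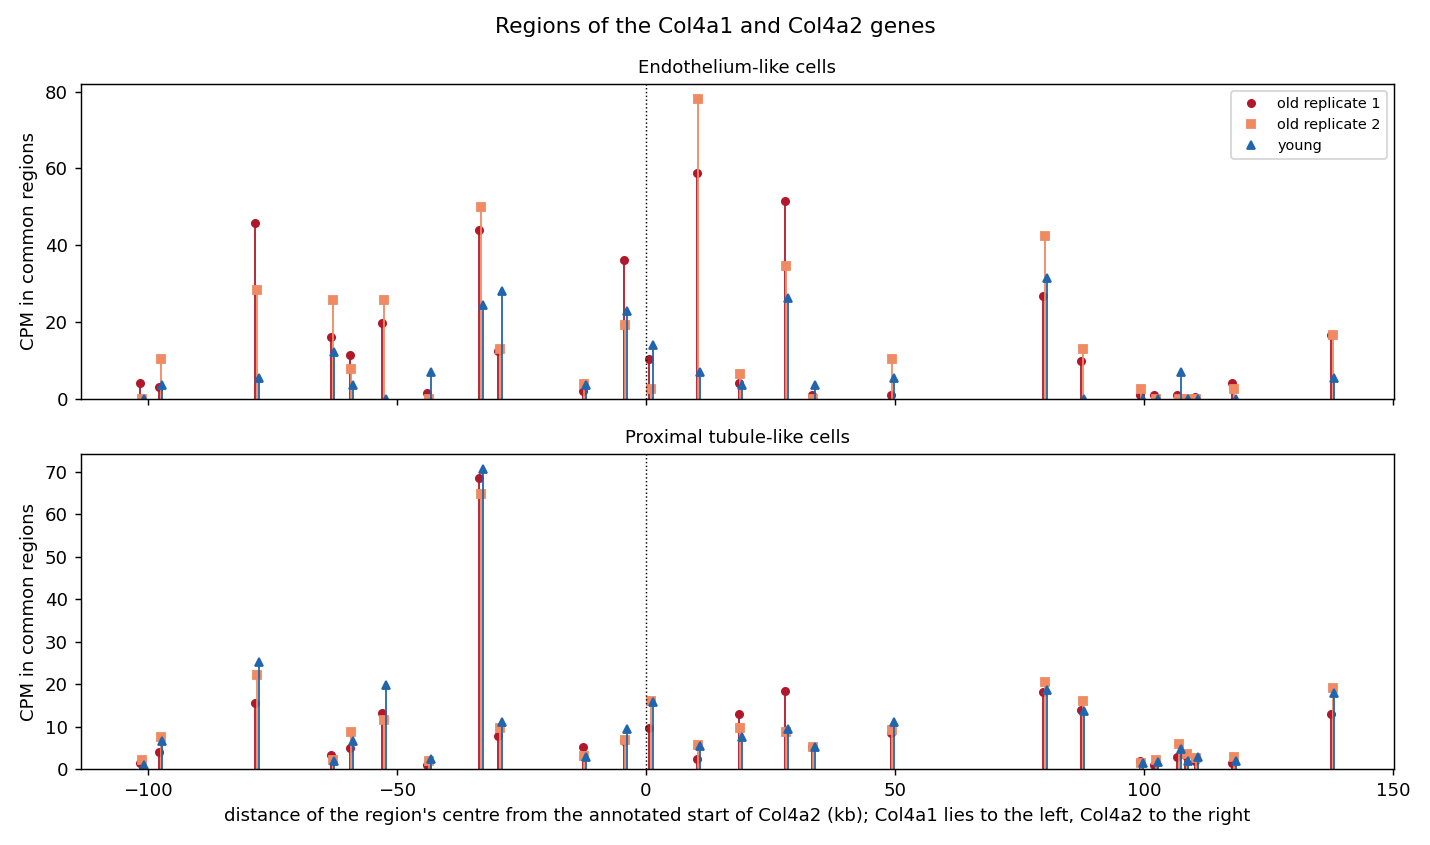
Levels (CPM in common regions, y axis) of each common region of Col4a1 and Col4a2 against its distance from the annotated start of Col4a2 in kb, per library. In endothelium-like cells the tallest Col4a2 region of the old libraries is at 58.8 and 78.2 CPM in the old libraries, against 7.0 CPM in the young library.

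Summed marker levels differed between old and young endothelium-like cells. The summed level of 10 podocyte markers was 878 and 869.9 CPM in the old libraries, against 574 CPM in the young library, with 1 marker at 0 in the young library. Markers of proximal tubule (16) summed to 135 and 155 CPM in the old libraries, against 290.4 CPM in the young library. Fibroblast or mesangium markers summed to 47.4 and 48.7 CPM, against 84 CPM, and the endothelium's own 15 to 1319.6 and 1025 CPM, against 932 CPM. The podocyte list was open in the tubule classes too, again with both old libraries above the young one. It summed to 688 and 639 CPM, against 567 CPM, in proximal tubule-like cells. In loop to collecting duct-like cells it summed to 483 and 445 CPM, against 381 CPM. The part of these marker levels in the collagen values was not tested.

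Whether the change with age differed between classes was tested with an interaction term. Of 38 collagen genes, 0 were called for endothelium-like minus proximal tubule-like cells (7 unadjusted, and 2031 of all genes; edgeR), against 0.21% of 24796 genes, and 0 for loop to collecting duct-like minus proximal tubule-like cells (0 unadjusted, and 630 of all genes), against 0.0202%. DESeq2 was not run on this term. The difference was 0.94 (SE 0.31, adjusted p = 0.264) at Col4a2, 0.92 (SE 0.30, adjusted p = 0.245) at Col4a1, -1.51 (SE 0.56, adjusted p = 0.365) at Col12a1 and -1.77 (SE 0.76, adjusted p = 0.4997) at Col25a1. The opposite age orders of Col4a1 in endothelium-like and tubule cells were therefore not shown to differ at this depth.

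Genes that make, trim, cross-link, bind or degrade collagen, and other matrix genes, were examined as 6 lists, and 0 of their tested members were called in any class (edgeR). For each list the 2 largest changes among genes that averaged at least 10 CPM are given. In endothelium-like cells the lists had 0 to 5 members at an unadjusted p under 0.05. The propeptide and cross-linking list had a median log2 change of -0.18 and 4 of 10 above 0. Its transglutaminase gene Tgm2 had 199 and 147 CPM in the old libraries, against 85.7 CPM in the young library (log2 1.05, adjusted p = 0.0780). The other basement membrane list had -0.15 and 8 of 18 above 0, with -2.13 at the laminin gene Lama1 (13.9 and 2.56 CPM in the old libraries, against 42 CPM in the young library; adjusted p = 0.189) and -1.79 at Lamb1. The breakdown list had 0.36 and 5 of 7, with 0.91 at the protease inhibitor gene Timp3 and -0.63 at Mmp14. Below that limit, the protease gene Mmp9 had 12.4 and 15.4 CPM in the old libraries, against 0 CPM in the young library. It could pass the filter on low counts only through the old libraries. The young library held 571587 counts in this class, so few would be expected at such a level. The receptor list had -0.17 and 2 of 7, with 1.89 at Itga11 and -0.60 at Itga2. The modification list had 0.18 and 11 of 21, with 0.84 at P3h4 and -0.79 at P3h3. The other fibrillar matrix list had 0.15 and 6 of 11, with -2.05 at Fn1 and 0.88 at Eln. The second gene of the cross-linking list, Loxl4, had 0.92.

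The list medians of proximal tubule-like cells ran between -0.21 (breakdown, 2 of 8 above 0) and 0.17 (other fibrillar matrix, 10 of 13 above 0). Loxl4, which cross-links collagen and elastin, had 47.4 and 38.2 CPM in the old libraries, against 25.2 CPM in the young library (log2 0.75, adjusted p = 0.208). Other values were 0.84 at Sparc, 0.79 at Fn1, 0.45 at Adamts2, 0.26 at Ddr1, -0.12 at Itga1, -0.24 at Mrc2, -0.18 at Mmp9, -0.35 at P3h2, -0.32 at Colgalt2, -0.41 at Fras1 and -0.39 at Npnt. In loop to collecting duct-like cells the medians ran between -0.09 (cross-linking, 7 of 15 above 0) and 0.5 (other fibrillar matrix, 7 of 11). The largest values there at 10 CPM or more were 1.25 at Loxl4 and -0.97 at Pxdn, 0.95 at Sparc and 0.81 at Fmod, -0.83 at Lama2 and -0.76 at Lama1, 0.67 at P4ha2 and 0.55 at Fkbp10, 0.44 at Mmp2 and -0.30 at Timp2, and 0.38 at Itga2 and 0.31 at Ddr1.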

How the data were processed

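Mouse kidney cells carrying the trnE mutation were profiled in 2 old libraries and 1 young library, grouped by sample title. Reads were processed with Cell Ranger ATAC 2.1.0 against mm10, per the submitters' processing notes. The authors deposited, per the file headers, 1 count table per library, which gives unnormalized counts of cut sites in each of that library's own peaks for every called barcode. Most counts are even, since both ends of a fragment count, so exact 95% Poisson intervals were computed on fragments (count over 2, rounded up).

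Overlapping peaks (at least 1 bp) were merged into 250005 regions, of which 72317 had a peak in every library. Barcodes with at least 1000 counts were kept, and doublets were removed by simulation. Cells were clustered without collagen regions (latent semantic indexing, Leiden, seed 7; Python 3.11.15, leidenalg 0.10.2, igraph 0.11.9) and named from marker lists without collagens. The naming rule was revised after the clusters were seen. Classes with at least 30 cells in every library were tested on summed counts with edgeR 4.0.16 (R 4.3.3; TMM, filterByExpr, quasi-likelihood, Benjamini-Hochberg), with DESeq2 1.42.0 as an alternative. The scripts were tested on simulated data. The members and lists were chosen with earlier results of these data known. Named genes were the basement membrane genes, selected fibrillar and other members, any called member and the 3 highest in CPM per kb per class. To these came the 3 largest changes in each direction at 10 CPM or more per class. The 2 largest changes of each companion list at 10 CPM or more were named as well. Some of the named genes are given by their log2 change alone. Promoters were taken from RefSeq.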

Additional observations from a re-analysis of the deposited data

How the results depend on the processing

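Of 691 alternative values for 58 items (a gene or region in a class), 630 were labelled the same. For tested settings this means that direction and side of the threshold were kept. Of the 630, 55 without old replicate 1 and 51 without old replicate 2 had no test. There it means a shift smaller than the SD of the 2 old log2 levels, and the direction of genes was not checked. In proximal tubule-like cells 0 collagen genes were called, and 1 (Col5a3) with regions covered at least 70%. In endothelium-like cells 0 were called, and 1 (Col25a1) without a filter. The 4 endothelium-like regions became 0 with DESeq2, 1 without a filter, 2 with regions covered at least 70% and 1 without the unnamed sub-cluster. The lost calls had adjusted p = 0.997 with DESeq2, 0.0547 to 0.105 without a filter and 0.0898 to 0.135 without the sub-cluster. Summed member levels, averaged over libraries, were 2007 CPM in proximal tubule-like (276 CPM at gene starts alone), 1699 in loop to collecting duct-like (1857 with all peaks, 243 at starts) and 1296 in endothelium-like cells (1562 with all peaks, 198 at starts). The sums at starts leave out members without a listed start. Peaks open in at least 2% of barcodes numbered 67, 221 and 269.

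The 39 reversals, none called either way, were as follows, and the cause was not tested. In proximal tubule-like cells, shared clusters gave -0.11 at Col12a1, 0.059 at Col4a3, -0.029 at Col4a4, 0.16 at Col4a5, 0.25 at Col4a6, 0.44 at Col5a1, -0.073 at Col5a3 and -0.73 at Col8a1. Gene starts gave 0.16 at Col18a1, -0.23 at Col4a2 and -0.076 at Col8a1. All merged regions gave -0.21 at Col4a2, -0.013 at Col4a4 and 0.063 at Col4a6, and fragments 0.021 at Col3a1 and 0.052 at Col6a2. Kept doublets gave -0.030 and 3000 counts -0.056 at Col4a2, and 3000 counts 0.0008 at Col6a2. In loop to collecting duct-like cells, all merged regions gave -0.10 at Col15a1, -0.24 at Col4a2, 0.14 at Col4a4 and -0.18 at Col5a1, and gene starts -0.21 at Col16a1 and -0.017 at Col4a2. Col1a1 had -0.057 with fragments, -0.0056 with doublets and -0.021 at 3000 counts, Col4a2 -0.0082 at 3000 counts and Col4a1 0.37 with regions covered at least 70%. In endothelium-like cells, gene starts gave -0.98 at Col4a1 and Col4a2, and regions covered at least 70% 1.13 at Col14a1. Without the sub-cluster Col1a1 had 2.18, Col4a3 -0.16 and Col5a1 0.12. Fragments gave -0.10 at Col4a3 and -0.015 at Col4a4, and doublets -0.001 at Col4a4.

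Leaving out an old library leaves 1 against 1, a value with no test, so counts have none. Without old replicate 2, proximal tubule-like cells had -1.59 at Col3a1 (-0.08 with both), -1.83 at Col6a2 (-0.13), 0.11 at Col12a1 (0.16), 0.033 at Col15a1 (0.11), -0.040 at Col18a1 (-0.019), -0.19 at Col5a1 (-0.13) and 0.11 at Col8a1 (0.16). Without old replicate 1 the values were 0.0008 at Col18a1 and, in loop to collecting duct-like cells, 0.046 at Col5a1 (0.059). The fitted change of the Col4a1 region at 0 in the young library moved as well and is no bound. The young group is 1 library with 50 endothelium-like cells, which limits the precision there. No paired analysis was possible because the groups share fewer than 2 replicate numbers.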
